A study of Mus musculus with 6 samples.

Results

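The metalloproteases of the Mmp, Adam and Adamts families and the Timp inhibitors were compared between RAW264.7 cells given lipopolysaccharide (LPS) and the same cells given LPS together with PE-CUR. Members were all genes of the count table whose symbol begins with Mmp and a number, Adam and a number, Adamts, or Timp1 to Timp4, with Mmp9 left out. This gave 56 of 21604 genes, made up of 16 Mmp, 18 Adam, 19 Adamts and Adamtsl and 3 Timp genes. RAW264.7 is an established mouse macrophage-like line, labelled wild type and as a bone marrow macrophage. Both groups of 3 samples received LPS at 100 ng/mL for 24 h, and the PE-CUR group also received PE-CUR at 2 mg/mL for 24 h. The series title speaks of Pickering emulsions loaded with curcumin and of periodontitis, and the question was whether PE-CUR lowers inflammation and osteoclast formation. No untreated cells, empty emulsion or free curcumin are among the samples, so each comparison is of PE-CUR on top of LPS in 1 cell line.

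Matrix metalloproteases (Mmp genes) are zinc enzymes that cut collagens, elastin and other matrix proteins, and most are secreted as inactive precursors. The Adam proteases sit in the membrane and release the outer parts of other membrane proteins, such as tumour necrosis factor, a process called shedding. Adamts enzymes are secreted and cut proteoglycans, procollagens and other matrix proteins, whereas the Adamts-like (Adamtsl) proteins lack the protease domain. The Timp proteins are tissue inhibitors that block the active site of many of these enzymes. Macrophages use several of them to move through tissue and to release cytokines and receptors.

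The libraries held 28530750 to 35276533 counts, and 1 unit of the scaled count (CPM, relative to library size) stood for 27.7 to 36.2 counts. The macrophage marker genes were detected in all 6 libraries, 10 of 10 in each. Their summed level was 11570 to 12034 CPM in LPS and 10113 to 10840 CPM in PE-CUR. Lyz2 was the largest part (6417 and 4834 CPM). Of these 10 markers 4 fell, 2 rose and 4 did not pass. Fcgr3 fell from 118.9 to 14.2 CPM and Adgre1 from 85.1 to 26.8 CPM, whereas Cd14 and Csf1r rose. Markers of other cell types were present too. The 6 epithelial markers in the table summed to 0.829 to 1.22 CPM in LPS and 1.26 to 3.35 CPM with PE-CUR, and 2 of 3 tested rose. Lck, the 1 tested T cell marker, rose from 6.18 to 8.47 CPM, whereas Cd3d, Cd3g and Cd8a had group means of at most 0.198 CPM. S100a8, the 1 tested neutrophil marker, fell from 4.48 to 2.02 CPM, whereas Elane, Ltf, Ly6g and Mpo had at most 1 count in any library. The 5 skeletal muscle markers in the table summed to 31.0 to 38.0 CPM over both groups, with 0 of 3 tested called. Tnni2 made up most of that sum (32.7 and 32.1 CPM). Ckm and Tnnt3 had group means of at most 0.426 CPM, and Myh4 at most 1 count in any library. The 6 osteoclast markers in the table summed to 137 to 164 CPM in LPS and 55.8 to 72.5 CPM with PE-CUR, and 3 of 4 tested fell. The 7 endothelial markers summed to 21.8 to 25.6 CPM in LPS and 7.05 to 7.80 CPM with PE-CUR, with 3 of 4 tested lower and 1 (Pecam1) higher. Vwf made up most of that sum (18.02 and 4.54 CPM), and Emcn had 1 count in all libraries together. The macrophage, osteoclast and endothelial sums moved in the direction of the members that fell, and their part in those values was not tested. The 7 hepatocyte markers in the table summed to 45.5 to 78.8 CPM in the LPS libraries and PE-CUR replicate 3, and to 0.154 and 0.0589 CPM in PE-CUR replicates 1 and 2. The 7 fibroblast markers in the table summed to 13.1 CPM in PE-CUR replicate 2, against 0.40 and 0.361 CPM in replicates 1 and 3 and 1.63 to 2.80 CPM in LPS. Of the fibroblast genes, Col1a1 had 180 counts and Col1a2 had 187 in that library, and at most 15 and 9 in any other. Col3a1 had 57 counts there, Postn 11, Pdgfrb 7, Pdgfra 2 and Dcn 0. Of 3 tested fibroblast markers 2 fell with PE-CUR, Pdgfra (0.958 to 0.0745 CPM) and Pdgfrb (0.411 to 0.103 CPM), and Col1a1 did not pass. Replicate 2 is therefore named for the tested members that moved most with it, and for Timp3 and Mmp2.

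Of the 56 members, 24 were abundant enough to be tested and 32 were not. In edgeR's quasi-likelihood test, 3 members rose and 12 fell with PE-CUR (adjusted p under 0.05, Benjamini-Hochberg over all genes). Those 15 calls are 62.5% of the members tested, beside 63.4% of all 13014 genes tested, so the share of members that changed was close to the background. By direction, 50% of tested members fell and 12.5% rose, against 32.7% and 30.8% of all tested genes. Calls of at least 2-fold lower were made for 10 of the 24 (41.7%; 11.5% of all tested genes), and of at least 2-fold higher for 1 (Adam33; 6.37% of all tested genes). The median log2 fold change was -0.46 over the 24 and -0.03 over all tested genes. In 19 of the 24 every treated value lay on one side of every LPS value, as in 69.0% of all tested genes. A gene high in only 1 group can pass the abundance filter through that group, so these counts describe the 24 and not the whole family. Adam33, the member at least 2-fold higher, passed it only with the PE-CUR libraries. The LPS libraries had a count for 18210 to 18451 genes each, and the PE-CUR libraries for 16701 to 17002. Of the 10 members at least 2-fold lower, Mmp19 averaged 25.0 CPM in LPS and the others at most 5.42 CPM. They were not compared with other genes of similar level, so their larger share is not shown to be particular to these families. In bulk RNA, fewer cells of a kind and less RNA per cell cannot be told apart.

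**Figure D1:**
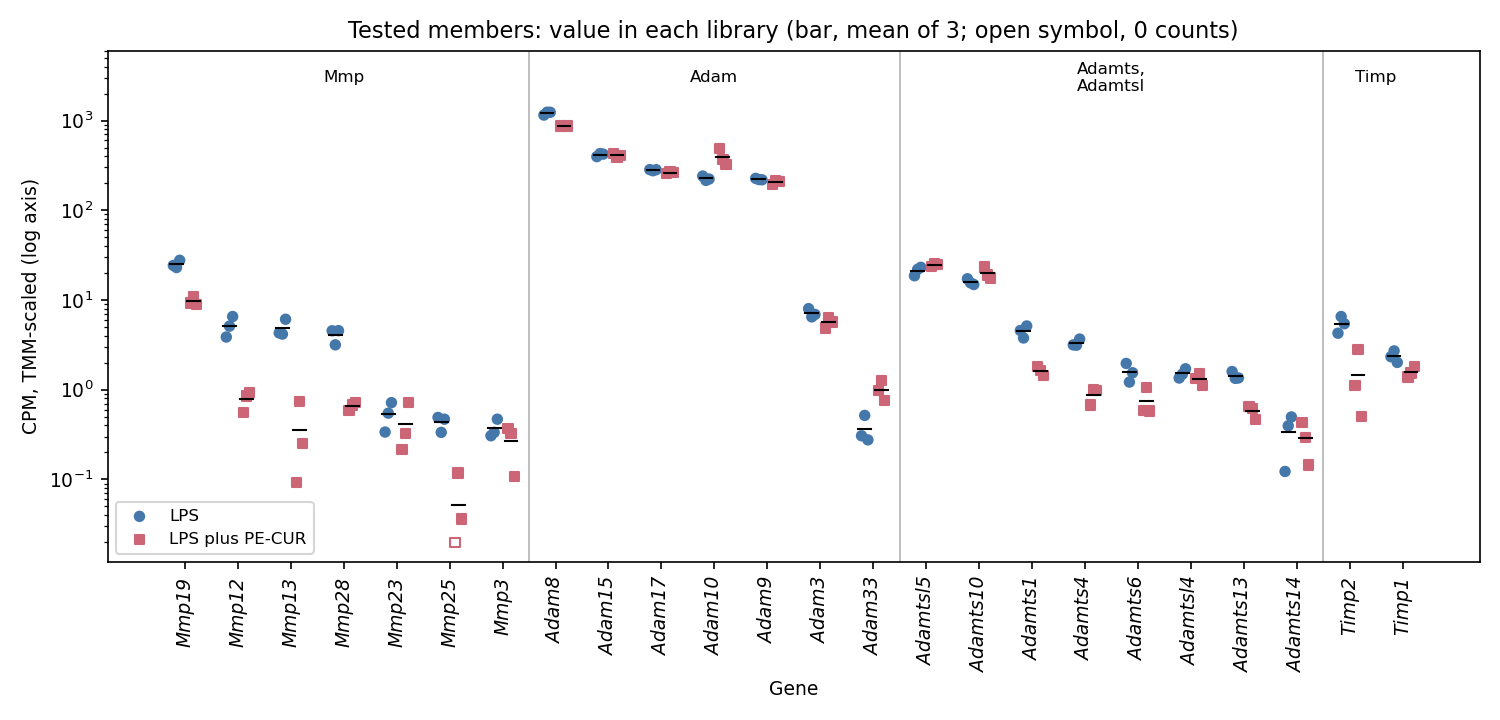
CPM (log axis, scaled by TMM factors) of the 24 tested members in each of the 6 libraries, by family, with LPS as circles, PE-CUR as squares, and a bar at each group's mean. The 5 most abundant Adam genes lie above 190 CPM in every library, whereas every Mmp gene except Mmp19 lies below 7 CPM.

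The families differed in level. Per length, on the scale of fragments per kilobase, scaled to depth (FPKM), summed Adam expression was 591 ± 14.3 FPKM in LPS and 513 ± 32.1 FPKM in PE-CUR (mean ± SD, n = 3). Summed Mmp expression, without Mmp9 here and in the ratios below, was 12.5 ± 1.76 and 3.74 ± 0.545 FPKM. Summed Timp expression was 4.23 ± 0.605 and 2.17 ± 0.331 FPKM. For Adamts and Adamtsl the sums were 12.3 ± 0.686 and 12.3 ± 0.703 FPKM, almost alike in the groups. Most of each sum was Adamtsl5 (6.79 and 7.57 FPKM), of the kind without a protease domain, and Adamts10 (3.02 and 3.67 FPKM). Within the sums Adamts1 went from 0.939 to 0.329 FPKM and Adamts4 from 0.537 to 0.137 FPKM. The Mmp and Timp sums did not overlap between the groups, and neither did the Adam sums. Within each library the ratio of summed Mmp to summed Timp FPKM was 3.03, 2.27 and 3.73 in LPS replicates 1 to 3 and 1.85, 1.73 and 1.61 with PE-CUR. In CPM, which is not per length, that ratio was 5.87, 4.01 and 6.29 in LPS and 4.63, 3.05 and 5.05 with PE-CUR, and the groups overlapped. These sums are descriptions of members chosen with earlier results known and carry no test.

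Among the Mmp genes 5 of 7 tested members fell and 0 rose (edgeR, adjusted p under 0.05), with a median log2 fold change of -2.63. That is 71.4% lower, beside 32.7% of all tested genes. With PE-CUR, Mmp13 had 3, 25 and 7 counts, Mmp25 0, 4 and 1, Mmp3 12, 11 and 3, and Mmp23 7, 11 and 20. They could pass the abundance filter only with the LPS libraries, so the share describes the 7 tested genes and not the family. At an unadjusted p under 0.05 the count of higher members was also 0, and so it was with DESeq2 and with limma-voom. Mmp19, a secreted protease of basement membrane proteins (chromosome 10, 128790910 to 128800827, build mm10), was at 24.3, 23.0 and 27.7 CPM in LPS replicates 1 to 3 and at 9.23, 10.9 and 8.85 CPM in PE-CUR replicates 1 to 3. All treated values lay below all LPS values (log2 change -1.37, SE 0.11, edgeR adjusted p = 1.65e-06). Among the Mmp members, which leave out Mmp9, it was the most abundant per length in both groups. It made up 59.5% ± 2.22 of their summed FPKM in LPS and 73.6% ± 4.0 with PE-CUR (SD, n = 3). Its level was not compared with that of Mmp9. In the annotation, 28.3% of its exonic bases are shared with genes on the opposite strand, among them Tmem198b, and whether counting used strand is not stated.

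Mmp12, the macrophage elastase (chromosome 9, 7344397 to 7360461), stood at 3.87, 5.11 and 6.55 CPM in LPS and at 0.554, 0.854 and 0.939 CPM with PE-CUR. The fall was 6.63-fold (log2 change -2.73, SE 0.27, edgeR adjusted p = 7.99e-06). Mmp13, a collagenase that cuts fibrillar collagen (chromosome 9, 7272514 to 7283333), was at 4.30, 4.17 and 6.11 CPM in LPS and at 0.0923, 0.736 and 0.253 CPM with PE-CUR. Its groups were also separate, and the highest of the treated values was that of replicate 2, the library with collagen transcripts. The log2 fold change of Mmp13 was -3.71 (SE 0.52, edgeR adjusted p = 4.11e-04), and -4.79 without PE-CUR replicate 2 (edgeR adjusted p = 1.06e-06).

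Mmp28, also called epilysin (chromosome 11, 83440768 to 83463040), was at 4.54, 3.17 and 4.56 CPM in LPS and at 0.585, 0.677 and 0.722 CPM with PE-CUR. Of its exonic bases, 12% are shared with 1700020L24Rik on the opposite strand. The treated libraries differed little among themselves and all lay below LPS (log2 change -2.63, SE 0.25, edgeR adjusted p = 5.36e-06). Mmp25, a membrane-anchored protease of leukocytes (chromosome 17, 23628315 to 23645269), had 16, 11 and 17 counts in LPS and 0, 4 and 1 counts with PE-CUR. At so few counts its fitted log2 fold change of -2.94 (SE 0.70, edgeR adjusted p = 0.00354) is imprecise, and it was -4.37 without PE-CUR replicate 2 (edgeR adjusted p = 0.00157).

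The remaining tested Mmp genes did not pass. Mmp3, stromelysin 1, was at 0.307 to 0.470 CPM in LPS and 0.108 to 0.369 CPM with PE-CUR (log2 change -0.44, SE 0.49, edgeR adjusted p = 0.456). Mmp23 was at 0.338 to 0.718 CPM in LPS and 0.215 to 0.722 CPM with PE-CUR (log2 change -0.38, SE 0.50, edgeR adjusted p = 0.528). Both overlapped between groups and both rest on few counts, so a change of the size seen in Mmp19 was not well resolved for them.

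**Figure D2:**
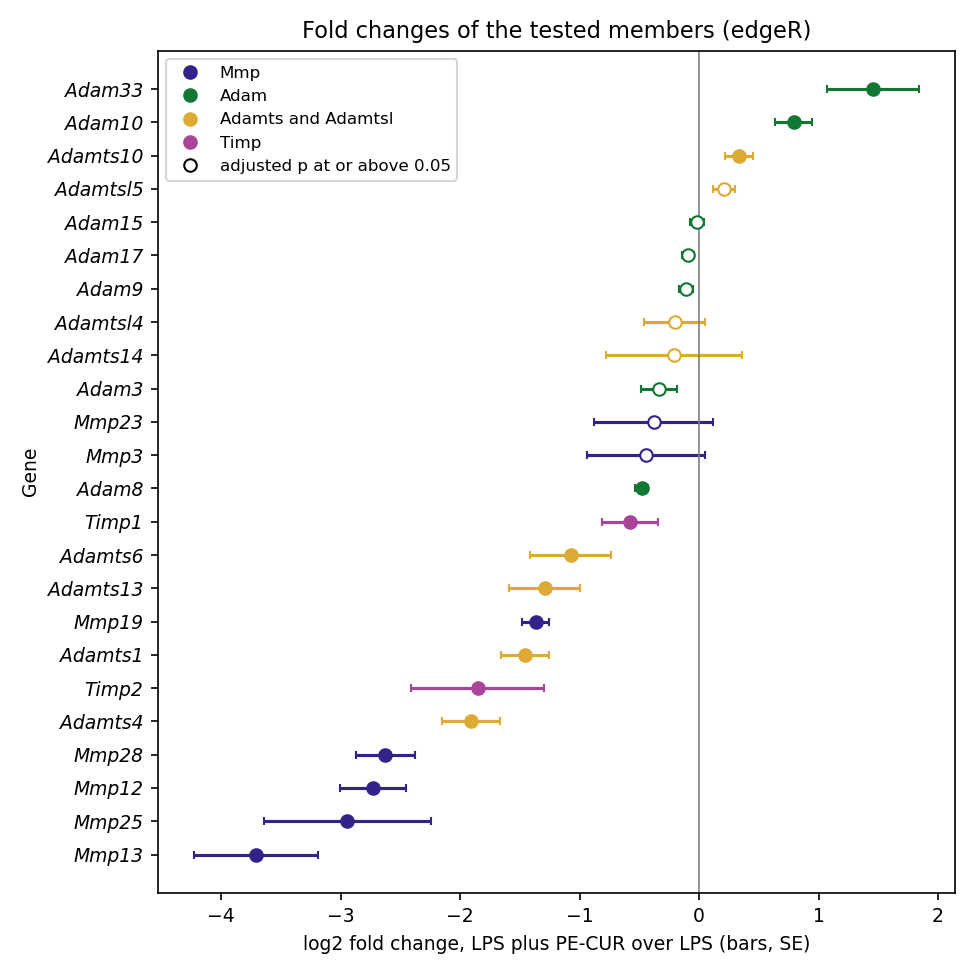
Log2 fold change (PE-CUR over LPS) with its SE for the 24 tested members, coloured by family, with open circles for an adjusted p at or above 0.05. The 5 called Mmp genes lie between -1.37 and -3.71, and the 5 abundant Adam genes between -0.48 and 0.79.

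Mmp12 and Mmp13 are neighbours in a cluster of Mmp genes on chromosome 9. The 6 members found there, Mmp13, Mmp12, Mmp1b, Mmp3, Mmp10 and Mmp7, span 427.1 kb, and 61.1 kb separate the end of Mmp13 from the start of Mmp12. The neighbours differed in level. Mmp13 and Mmp12 were near 5 CPM in LPS, Mmp3 was at 0.370 ± 0.0870 CPM, and Mmp1b, Mmp10 and Mmp7 had at most 3 counts in any library. The promoters of these genes are shown because they share a short element in the stretch just before the start. The letters TGAGTCA, or TGACTCA on the other strand, are the binding element of AP-1, the Fos and Jun dimers that LPS and growth factors activate. A search of the 250 bases before each start found it in at least 1 annotated promoter of all 6 genes, at 35 to 93 bases before the start. Sequences are from RefSeq for GRCm38.p6, the assembly of mm10, 5′ to 3′ on the strand of the gene, with the AP-1 letters in capitals and the last base next to the start: Mmp13 at chr9:7272414-7272513 (plus strand), Mmp12 at chr9:7347274-7347373 (plus strand), Mmp1b at chr9:7388027-7388126 (minus strand), Mmp3 at chr9:7445722-7445821 (plus strand), Mmp10 at chr9:7502242-7502341 (plus strand), Mmp7 at chr9:7691990-7692089 (plus strand).
Mmp13: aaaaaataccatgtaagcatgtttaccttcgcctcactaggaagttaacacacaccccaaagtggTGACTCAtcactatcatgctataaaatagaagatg
Mmp12: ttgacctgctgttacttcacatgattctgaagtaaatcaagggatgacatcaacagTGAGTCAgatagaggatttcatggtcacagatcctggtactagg
Mmp1b: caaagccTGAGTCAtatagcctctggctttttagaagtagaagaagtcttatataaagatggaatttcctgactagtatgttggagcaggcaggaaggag
Mmp3: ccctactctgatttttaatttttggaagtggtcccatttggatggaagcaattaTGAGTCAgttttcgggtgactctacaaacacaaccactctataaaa
Mmp10: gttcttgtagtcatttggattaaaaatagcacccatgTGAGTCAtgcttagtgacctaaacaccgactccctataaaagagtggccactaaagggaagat
Mmp7: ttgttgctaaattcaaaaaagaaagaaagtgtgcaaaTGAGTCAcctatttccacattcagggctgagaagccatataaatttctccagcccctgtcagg

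The capitals begin 35 bases before the start in Mmp13, 44 in Mmp12, 46 in Mmp3, 63 in Mmp10 and Mmp7, and 93 in Mmp1b. RefSeq lists 2 starts each for Mmp12 and Mmp7. The element lies before the one at the higher coordinate in Mmp12 and the one at the lower coordinate in Mmp7, and not in the 250 bases before the other. Among all 32851 promoter entries of that length, 4.46% hold the element on either strand, and 3.6% of 13212 entries of tested genes do. Of the 42 entries for 37 members, 7 hold it, the 6 shown and 1 of the 3 of Adam19. Mmp3 and Mmp13 thus both hold it, and only the second passed the test. The core of the antioxidant response element, TGACNNNGC on either strand, was found in 4 of the 42 entries (9.52%), those of Mmp15, Adamtsl5, Adamts2 and Timp2, beside 10.2% of all entries. A match is a match of letters and does not show binding.

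**Figure D3:**
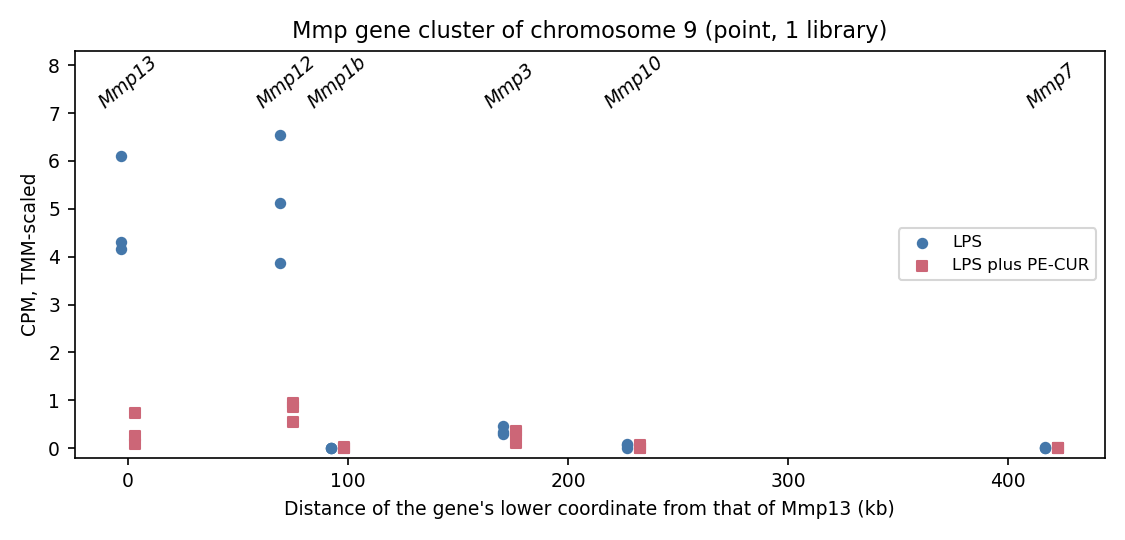
CPM (scaled by TMM factors) in each library for the 6 Mmp genes of the chromosome 9 cluster, placed by distance in kb from Mmp13, with LPS as circles and PE-CUR as squares. Mmp13 and Mmp12 lie above 3.8 CPM in all LPS libraries and below 1 CPM in all treated libraries, and the other 4 genes lie below 0.5 CPM throughout.

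AP-1 genes themselves were in a list of 20 AP-1 and Ets factors, of which 19 were tested, 4 rose and 8 fell (63.2% called, beside 63.4% of all tested genes; median log2 fold change -0.02). Jun, a main AP-1 subunit, fell from 259.6 ± 16.7 to 126 ± 13.02 CPM (log2 change -1.04, edgeR adjusted p = 1.13e-06). Fosl2 fell from 184 ± 10.7 to 97.8 ± 6.90 CPM and Fosl1 from 61.1 ± 4.0 to 33.6 ± 1.36 CPM. Junb rose from 128 ± 15.5 to 186 ± 12.8 CPM (log2 change 0.54, edgeR adjusted p = 3.83e-04), and so did the Ets factors Fli1 (50.2 to 69.1 CPM) and Elf1 (85.9 to 106 CPM). Fos, Jund and Atf3 fell as well (log2 change -0.68, -0.59 and -1.78), and Fosb, Atf2 and Batf did not pass. Junb was thus alone among the AP-1 genes of the list in rising. Of the Ets factors Etv4 and Etv5 fell. Elk1 passed narrowly as higher, with groups that overlapped (log2 change 0.21, edgeR adjusted p = 0.0491). The direction was divided among the Ets factors and mostly downward among the AP-1 genes. That split of the list was made with the values known, and the share called in the whole list was close to that of all tested genes.

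The Adam genes held most of the expression of the whole group. Adam8, Adam9, Adam10, Adam15 and Adam17 together made up 95.6% ± 0.231 of the members' summed CPM in LPS and 96.6% ± 0.273 with PE-CUR. Of 7 tested Adam genes 2 rose, 1 fell and 4 did not pass (42.9% called, beside 63.4% of all tested genes), with a median log2 fold change of -0.09. Adam10, the sheddase of Notch receptors and of the amyloid precursor protein (chromosome 9, 70678944 to 70780229), was at 241, 215 and 223 CPM in LPS and at 487, 365 and 325 CPM with PE-CUR. Every treated library lay above every LPS library, although the treated values spread widely (log2 change 0.79, SE 0.15, edgeR adjusted p = 0.00495). Without replicate 1, the highest of the treated libraries, the log2 fold change was 0.64 (edgeR adjusted p = 5.24e-06).

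Adam8, a sheddase abundant in leukocytes (chromosome 7, 139978932 to 139995207), went the other way. It was at 1151, 1240 and 1237 CPM in LPS and at 871, 858 and 873 CPM with PE-CUR. The treated values were almost equal and all below LPS (log2 change -0.48, SE 0.05, edgeR adjusted p = 2.08e-05). Per length it was the most abundant member in both groups, with 49.8% ± 1.0 of summed Adam FPKM in LPS and 39.6% ± 1.43 with PE-CUR (SD, n = 3).

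Adam17, also called TACE, the enzyme that releases tumour necrosis factor (chromosome 12, 21323509 to 21373632), was at 284, 276 and 283 CPM in LPS and at 258, 267 and 265 CPM with PE-CUR. The groups did not overlap, but the difference was small and did not pass (log2 change -0.09, SE 0.05, edgeR adjusted p = 0.126). It passed as lower in 4 of 10 other settings that used all 6 libraries, with log2 fold changes down to -0.15, and in 0 of the 6 fits without 1 library. Adam9, another widely expressed sheddase, was at 219 to 227 CPM in LPS and 193 to 216 CPM with PE-CUR (log2 change -0.11, edgeR adjusted p = 0.132), and passed as lower in 3 of those 10 settings. Adam15, an integrin-binding family member, was at 396 to 428 and 394 to 433 CPM (log2 change -0.02, edgeR adjusted p = 0.807), and the sign of its difference depended on the scaling. For Adam15, 20.6% of the exonic bases are shared with a gene on the opposite strand.

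**Figure D4:**
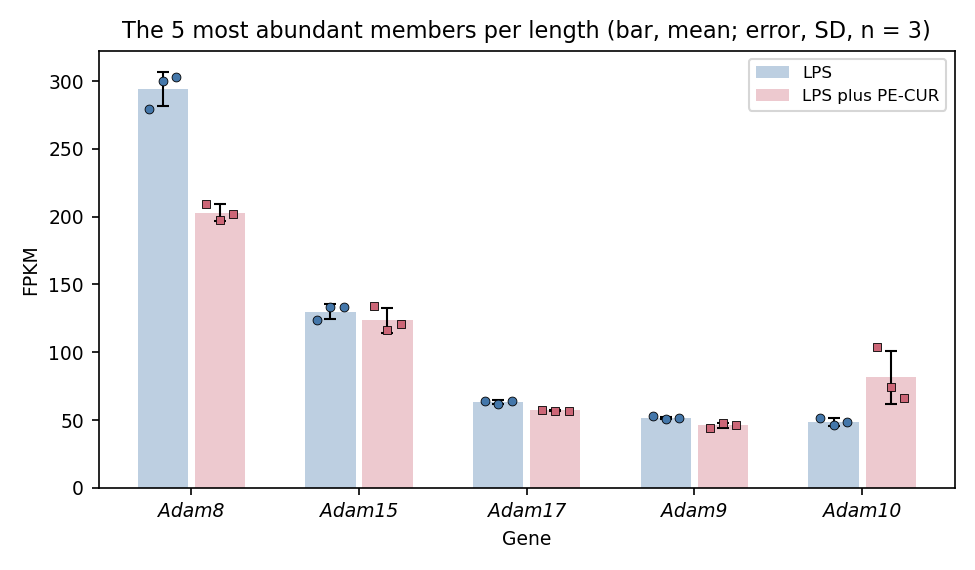
FPKM of the 5 most abundant members in each library, with bars at the group mean and error bars of 1 SD (n = 3). Adam10 lies below Adam17 in every LPS library and above it in every PE-CUR library.

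Per length, the order of the leading members changed at Adam10. In LPS the order by FPKM was Adam8 (294 ± 12.7), Adam15 (130 ± 5.46), Adam17 (63.3 ± 1.29), Adam9 (51.6 ± 0.946) and Adam10 (48.7 ± 2.80; mean ± SD, n = 3). Adam9 and Adam10 overlapped there, at 50.9 to 52.7 and 46.2 to 51.7 FPKM. With PE-CUR, Adam10 (81.5 ± 19.5 FPKM) came next after Adam8 and Adam15, above Adam17 (57.0 ± 0.241) and Adam9 (46.0 ± 1.55). The ratio of Adam10 to Adam17 in FPKM was 0.809, 0.746 and 0.752 in LPS replicates 1 to 3 and 1.81, 1.31 and 1.17 with PE-CUR. Mmp19 followed at 7.38 ± 0.760 FPKM in LPS, sixth of all members, and stood eighth with PE-CUR at 2.74 ± 0.284, below Adamtsl5 and Adamts10.

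Adam33 and Adam3 were far lower. Adam33, known as a gene of airway mesenchyme, had 10, 17 and 10 counts in LPS and 32, 43 and 21 with PE-CUR. All treated values lay above LPS, at 0.758 to 1.27 against 0.276 to 0.518 CPM (log2 change 1.45, SE 0.38, edgeR adjusted p = 0.00645). At its LPS counts Adam33 could pass the abundance filter only with the PE-CUR libraries, where it was high. It was not tested under the filter of a mean of at least 1 CPM. Adam3, best known as a sperm protein, was at 6.48 to 8.01 CPM in LPS and 4.89 to 6.33 CPM with PE-CUR (log2 change -0.34, SE 0.15, edgeR adjusted p = 0.0701). Markers of male germ cells were near 0 in the same libraries, with a summed level of 0.215 to 0.553 CPM.

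The list of 17 genes that mature or regulate Adam10 and Adam17 had 12 tested members, of which 6 fell, 0 rose and 6 did not pass (edgeR; 50% called, beside 63.4% of all tested genes; median log2 fold change -0.26). The count of higher members was 0 at an unadjusted p under 0.05, with DESeq2 and with limma-voom too. Furin, which removes the inhibitory prodomain of many of these proteases, fell from 275.6 ± 18.01 to 188 ± 9.17 CPM (log2 change -0.56, edgeR adjusted p = 2.32e-05). Tspan14 and Tspan17, tetraspanins that bring Adam10 to the cell surface, fell from 46.2 to 32.1 and 7.08 to 2.72 CPM, in that order. Of 21 tested membrane proteins known to be shed by Adam10 or Adam17, 4 rose, 13 fell and 4 did not pass (81.0% called, beside 63.4% of all tested genes; median log2 fold change -0.64). Areg, the growth factor amphiregulin, fell from 2.24 ± 0.258 to 0.0825 ± 0.0438 CPM (log2 change -4.66, edgeR adjusted p = 2.54e-06). F11r, a junction protein, fell from 18.8 to 4.20 CPM and Sort1, a sorting receptor, from 46.6 to 17.4 CPM. Tnf, the best known cargo of Adam17, rose 1.06 on the log2 scale, and Csf1r and Lrp1 rose by 0.47 and 0.25.

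Among the Adamts and Adamtsl genes 4 of 8 tested members fell, 1 rose and 3 did not pass (62.5% called, beside 63.4% of all tested genes; median log2 fold change -0.64). Adamts4, an aggrecanase (chromosome 1, 171250129 to 171262267), was at 3.16, 3.14 and 3.67 CPM in LPS and at 0.677, 1.001 and 0.975 CPM with PE-CUR. Adamts1, which cuts versican and other proteoglycans (chromosome 16, 85793827 to 85803113), was at 4.57, 3.78 and 5.14 CPM in LPS and at 1.82, 1.65 and 1.44 CPM with PE-CUR. Neither gene overlapped between the groups. The log2 fold change was -1.91 for Adamts4 (SE 0.24, edgeR adjusted p = 4.59e-05) and -1.45 for Adamts1 (SE 0.20, edgeR adjusted p = 8.39e-05).

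Adamts13, the protease of von Willebrand factor, fell from 1.34 to 1.60 CPM in LPS to 0.469 to 0.646 CPM with PE-CUR (log2 change -1.29, SE 0.30, edgeR adjusted p = 0.00294). Adamts6 was at 1.96, 1.22 and 1.55 CPM in LPS and at 0.585, 1.06 and 0.578 CPM with PE-CUR (log2 change -1.08, SE 0.34, edgeR adjusted p = 0.0168). The Adamts6 call ended without LPS replicate 1, without LPS replicate 3 and without PE-CUR replicate 3 (edgeR adjusted p = 0.0911, 0.0505 and 0.0502). PE-CUR replicate 2 was its highest treated library. Without that library the log2 fold change of Adamts6 was -1.39 (edgeR adjusted p = 0.00639).

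Adamts10, a partner of fibrillin microfibrils, passed as higher. It was at 17.3, 15.5 and 14.9 CPM in LPS and at 23.4, 18.9 and 17.7 CPM with PE-CUR, with a gap of less than 1 CPM between the groups (log2 change 0.33, SE 0.12, edgeR adjusted p = 0.0258). That call ended when LPS replicate 2, LPS replicate 3 or treated replicate 1 was left out (edgeR adjusted p = 0.0501, 0.0659 and 0.0592), with library size alone (edgeR adjusted p = 0.0646) and in both limma fits of log2 FPKM (limma adjusted p = 0.133 and 0.131). Adamtsl5, the most abundant of this family per length, was at 18.6 to 23.1 CPM in LPS and 23.8 to 25.2 CPM with PE-CUR, short of the threshold (log2 change 0.21, SE 0.09, edgeR adjusted p = 0.0654). It passed as higher with median-ratio factors, with no filter, in the table without mitochondrial and the 10 most abundant genes, and without LPS replicate 3 or treated replicate 1. Adamtsl4 (1.52 ± 0.183 and 1.31 ± 0.191 CPM) and Adamts14, a procollagen N-proteinase (0.339 ± 0.194 and 0.290 ± 0.143 CPM), overlapped between groups and did not pass.

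Both tested inhibitors fell, as did 32.7% of all tested genes, and both calls were fragile. Timp2, which also takes part in activating Mmp2 at the cell surface (chromosome 11, 118301061 to 118355411), was at 4.27, 6.55 and 5.44 CPM in LPS and at 1.11, 2.80 and 0.506 CPM with PE-CUR. The groups were separate, with PE-CUR replicate 2 nearest to LPS (log2 change -1.85, SE 0.56, edgeR adjusted p = 0.0292). Without that library the log2 fold change of Timp2 was -2.67 (edgeR adjusted p = 3.08e-05). Leaving out LPS replicate 2, LPS replicate 3 or, of the treated libraries, replicate 1 ended the call (edgeR adjusted p = 0.0876, 0.0888 and 0.112). Timp1, an inhibitor that cytokines induce in many cells (chromosome X, 20870166 to 20874737), was at 2.33, 2.71 and 2.02 CPM in LPS and at 1.38, 1.53 and 1.81 CPM with PE-CUR. The groups were separate, with the highest treated value close to the lowest LPS value (log2 change -0.58, SE 0.23, edgeR adjusted p = 0.0486). The Timp1 call held in 1 of 6 fits without a library, the one without PE-CUR replicate 3, and in 5 of 10 other settings.

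**Figure D5:**
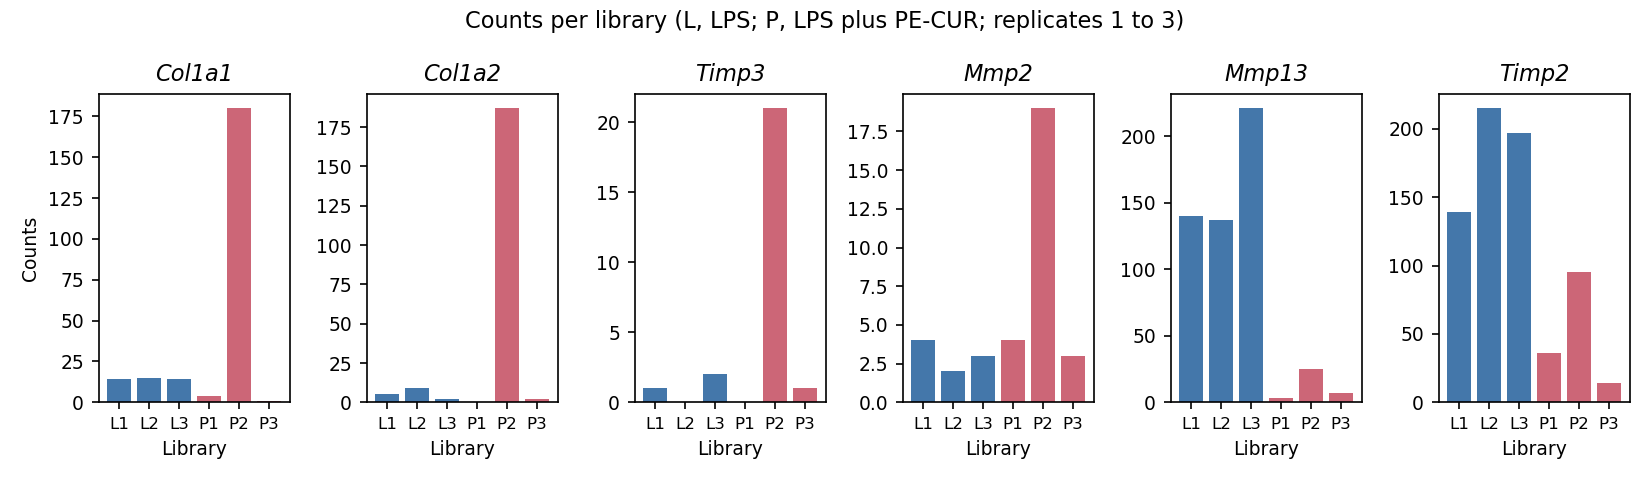
Raw counts in each library (L, LPS; P, PE-CUR; replicates 1 to 3) of the collagen genes Col1a1 and Col1a2 and of 4 members, each panel with its own linear axis. PE-CUR replicate 2 is the highest treated library in all 6 panels.

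In 4 members with at least 10 counts in the treated group, Mmp13, Mmp2, Timp2 and Timp3, replicate 2 was at least 2 times the next treated library, whereas this held for replicate 1 in 0 members and for replicate 3 in 1 (Mmp23), of 31. Timp3, an inhibitor bound to the matrix, had 21 counts in replicate 2 and at most 2 in any other library. Mmp2, gelatinase A, had 19 counts there and 2 to 4 elsewhere. Neither was abundant enough to be tested. The part of the collagen-bearing transcripts of replicate 2 in these values was not tested. Replicate 2 was the highest treated library in Mmp13, Timp2, Mmp25 and Adamts6. Each of these was therefore further below LPS when that library was left out, and this direction does not tell where its counts came from.

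Of the 32 members that were not tested, 24 had at most 8 counts in any library, and none was at 0 in all. The other 8 reached 10 or more in some library. Besides Timp3 and Mmp2 these were Mmp14, the membrane protease that activates Mmp2, with 6, 6 and 10 counts in LPS and 7, 14 and 2 with PE-CUR, and Mmp11, with 10, 2 and 9 against 1, 2 and 0. Adamts7 had 8, 8 and 1 counts in LPS and 16, 14 and 3 with PE-CUR. Adam1a (4 to 14 counts), Adam4 (3 to 15) and Adam32 (1 to 12), members known from testis, overlapped between the groups. Adam22, a brain protein of the family without protease activity, had 8, 5 and 5 counts in LPS and 0 in each treated library. None of these genes passed the abundance filter of the edgeR fit. With no filter, edgeR called Adam22 and Mmp11 lower and Adam12 (0 counts in each LPS library, 2, 4 and 1 with PE-CUR) and Timp3 higher, and DESeq2 called Adam22 lower. These calls rest on few counts, and that of Timp3 on the counts of replicate 2.

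Other genes around matrix proteolysis were taken from gene lists. Of 10 tested plasminogen system genes 3 fell, 0 rose and 7 did not pass, so that 30% fell beside 32.7% of all tested genes (edgeR; 0 higher at an unadjusted p under 0.05 and with limma-voom, 1 with DESeq2). Plaur, the urokinase receptor, fell by 1.63 on the log2 scale, S100a10 by 0.29 and Plat, the tissue plasminogen activator, by 1.10. The Plat call ended when replicate 2 of either group or treated replicate 3 was left out (edgeR adjusted p = 0.106, 0.0607 and 0.0665). Of 5 tested inhibitors and partners 1 rose (Lrp1, a clearance receptor) and 2 fell (60% called, beside 63.4% of all tested genes). Those were the tetraspanins Cd151 (30.2 to 11.01 CPM) and Cd63, a surface partner of Timp1 (396.7 to 222 CPM). Of 11 tested matrix genes 5 fell and 0 rose, or 45.5% called beside 63.4% of all tested genes (edgeR; 1 higher at an unadjusted p under 0.05, 4 with DESeq2 and 0 with limma-voom), among them Col18a1 (20.5 to 2.36 CPM), Lamc1 (336.7 to 250.01 CPM) and Hspg2 (5.48 to 2.64 CPM). Of 3 tested zinc proteases of related families, Lmln rose from 5.83 to 11.1 CPM and Pappa2 fell from 1.44 to 0.304 CPM. That is 66.7% called, beside 63.4% of all tested genes.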

How the data were processed

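The authors deposited whole-number counts per gene symbol together with FPKM, for 21604 gene symbols in 6 libraries, 3 per group. The tools named, per the submitters' processing notes, are HTSeq, fastp, DESeq2 and SAMtools, with build mm10. Versions, aligner, annotation and strand setting were not given in the sources used here. The deposited FPKM values are the counts divided by 1 length per gene and by the library total (100% of 105337 values above 0, relative tolerance 1e-04), so they rescale the same data. They were used for levels compared between genes.

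Counts were fitted on the whole table in R 4.3.3 with edgeR 4.0.16 (filterByExpr by group, 13014 genes; TMM factors 0.964 to 1.03; robust quasi-likelihood, group as the only term). P-values are two-sided and adjusted by Benjamini-Hochberg over all genes tested, with a threshold of 0.05. A log2 fold change (log2 change) above 0 means higher with PE-CUR. Its SE was taken as its size divided by the square root of F. CPM were scaled by TMM factors. The fit was tested on simulated data. Other settings tried were no filter, library size alone, median-ratio factors, a mean of at least 1 CPM, DESeq2 1.42.0, limma 3.58.1 (voom, and log2(FPKM + 1) and log2(FPKM + 0.1)), the replicate number as a block, removal of mitochondrial and the 10 most abundant genes, and each library left out. Positions and promoters come from RefSeq for GRCm38.p6 (56 and 37 members matched) and exon overlaps from GENCODE M21.

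The members and gene lists were chosen with earlier results of these data known. Every tested member is named, those not tested where a library has at least 10 counts (Adam22 was chosen after its values were seen), and up to 3 called genes per direction and list with the smallest p and a mean of at least 1 CPM in a group. The other AP-1 and Ets genes and the single marker genes were named with their values known. Protein sequences were not used here. The labels do not say that replicates came from separate cultures, so p-values cover only how these samples vary, which may be technical.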

Additional observations from a re-analysis of the deposited data

How the results depend on the processing

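Of the 15 member calls, 11 to 15 were kept in each of the 16 alternatives (13 with a mean of at least 1 CPM, where Adam33 and Mmp25 were not tested). The replicate block kept 14 and lost Timp1 (edgeR adjusted p = 0.0942), and left 1 Timp gene lower. Samples with the same number did not deviate together (r = -0.102, -0.178 and -0.048 across genes), so the numbers are not taken as pairs. Members called higher numbered 6 with no filter, which tests genes near 0 counts. Adam genes called lower numbered 4 with library size alone and in both fits of log2 FPKM, 3 under the filter of 1 CPM, and 2 with no filter and with DESeq2; Adam genes called higher numbered 1 with a mean of at least 1 CPM. Adamts and Adamtsl genes called higher numbered 2 with median-ratio factors, with no filter and in the table stripped of mitochondrial and the 10 most abundant genes (the reduced gene set), and 0 with library size alone and in both fits of log2 FPKM (0 to 1 without 1 library). Timp genes called lower numbered 1 with median-ratio factors, no filter, DESeq2 and the reduced gene set (0 to 2 without 1 library), and 1 was called higher with no filter. In the lists, DESeq2 gave 2 inhibitors and partners higher (1 to 2 without 1 library), 1 plasminogen gene higher, 2 zinc proteases lower and 4 matrix genes higher. With no filter 1 plasminogen gene and 2 matrix genes were higher and 3 zinc proteases lower (0 with a mean of at least 1 CPM). Plasminogen genes called lower numbered 6 with library size alone and 5 with limma-voom and in both fits of log2 FPKM; higher calls without 1 library were 0 to 1 there and 0 to 2 among matrix genes. Adam15 turned above 0, uncalled, with median-ratio factors (log2 change 0.00041), no filter (0.037), DESeq2 (0.013) and the reduced gene set (0.017), and lay between -0.030 and 0.055 without 1 library. Adamts14 lay between -0.57 and 0.21 without 1 library. The cause of these changes was not tested. At 27.7 to 36.2 counts per CPM, members under about 1 CPM have wide errors.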
